A study of Mus musculus with 6 samples.

Results

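The regions described here are the places where Tex10 and the promoter mark H3K4me3 (trimethylated lysine 4 of histone H3) were found together away from the start of any protein-coding transcript. They numbered 990 of the 4331 intervals in the deposited HA-Tex10 list. They were chosen by measured values: an interval had to lie on chromosomes 1 to 19, share at least 1 bp with an interval of the deposited H3K4me3 list, and lie more than 1 kb from every transcription start site (TSS) of a protein-coding transcript. Windows of 1 Mb with at least 10 HA-Tex10 intervals were set aside. Of the 4129 HA-Tex10 intervals on these chromosomes, 2863 met H3K4me3, 1263 of these lay away from a coding TSS, and 273 of those were in dense windows. Overlap with H3K4me3, distance from coding TSS and scarcity of neighbours are therefore set by the choice and are not findings.

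The lists come from chromatin immunoprecipitation sequencing (ChIP-seq) of mouse primordial germ cell-like cells (PGCLCs), a culture model of the early germ line, at day 2. All 6 samples were untreated cells of strain 129Sv/J in which Tex10 carries an HA tag at its C terminus: 2 were precipitated with the HA antibody ab9110, 2 with the H3K4me3 antibody ab8580, and 2 were input DNA. Each antibody has 1 interval list, without heights or scores, so the values below carry no error between replicates, and how deeply the samples were sequenced is unknown. The input samples did not enter the values, so a background level of the regions was not measured. Shares carry Wilson 95% intervals that cover the counting of intervals only. They treat regions as independent, which neighbours and copies of one repeat are not, and no difference between sets of regions was tested.

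Tex10 is known as a subunit of a nuclear complex with Senp3, Pelp1, Las1l and Wdr18 that takes part in ribosomal RNA processing, and as a factor at active promoters and enhancers of pluripotent cells. H3K4me3 marks the starts of transcribed genes, and also those of non-coding RNA genes and of active transposable elements. LINE-1 (L1) elements are retrotransposons, DNA that spreads by copying its RNA back into the genome. A full-length mouse L1 begins with a promoter built of repeated units called monomers, followed by a short reading frame and then a long one that encodes the reverse transcriptase. Transfer RNA (tRNA) genes are transcribed by RNA polymerase III from control elements inside the gene, the A and B boxes, which the factor TFIIIC binds.

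The largest group of regions consisted of copies of 1 repeat family, in 3 subfamilies. A word of 30 bases from each is shown because it gives sequence that many regions of that subfamily share. Within the family, each word was found in its own subfamily only. Each word was chosen for its frequency in its subfamily, and CpG dinucleotides, the sites of DNA methylation, are in capitals. The letters are those of the GRCm38 reference, which is strain C57BL/6J, in the strand on which the long reading frame described below lies.
Subfamily 1: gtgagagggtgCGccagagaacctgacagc
Subfamily 2: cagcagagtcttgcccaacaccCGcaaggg
Subfamily 3: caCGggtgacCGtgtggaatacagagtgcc

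Smaller groups lay at tRNA genes and at TSS of non-coding genes. The tRNA genes below each lay wholly inside a region, and 5 different isotypes are shown so that their shared B-box core (ggttcna, in capitals) can be seen. All are GRCm38 sequences from the RefSeq annotation, given in the direction of transcription.
n-TPagg2 (tRNA-Pro, chr1:165641634-165641705, plus strand): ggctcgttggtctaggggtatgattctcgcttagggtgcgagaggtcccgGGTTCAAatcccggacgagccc
n-TGtcc2 (tRNA-Gly, chr1:171037997-171038068, minus strand): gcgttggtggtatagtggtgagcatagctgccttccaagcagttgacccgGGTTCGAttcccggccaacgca
n-TTagt9 (tRNA-Thr, chr7:35234770-35234843, minus strand): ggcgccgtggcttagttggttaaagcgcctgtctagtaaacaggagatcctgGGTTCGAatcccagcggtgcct
n-TVaac7 (tRNA-Val, chr11:48856637-48856709, plus strand): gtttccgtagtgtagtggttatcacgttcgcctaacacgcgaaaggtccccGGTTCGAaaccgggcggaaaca
n-TCgca54 (tRNA-Cys, chr11:97988923-97988994, minus strand): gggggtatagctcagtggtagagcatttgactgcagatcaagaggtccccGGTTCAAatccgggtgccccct

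The start of the 7SK RNA gene Rn7sk and a pair of non-coding TSS regions with a CREB word are shown as examples of single-copy sites. In the first, transcribed bases are in capitals. In the others, the capitals mark the palindrome TGACGTCA to which CREB and ATF factors are known to bind.
Rn7sk, from upstream into the gene (chr9:78175604-78175753, minus strand): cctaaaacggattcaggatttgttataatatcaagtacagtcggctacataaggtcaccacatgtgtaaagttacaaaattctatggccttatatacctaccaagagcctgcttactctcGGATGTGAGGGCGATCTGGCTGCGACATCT
Region at Tmem250-ps (chr2:26140441-26140579, plus strand): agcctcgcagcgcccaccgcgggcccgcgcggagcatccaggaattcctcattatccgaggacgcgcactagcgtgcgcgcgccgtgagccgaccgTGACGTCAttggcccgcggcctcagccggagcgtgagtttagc
Region at 4930471M09Rik (chr6:91440786-91440985, plus strand): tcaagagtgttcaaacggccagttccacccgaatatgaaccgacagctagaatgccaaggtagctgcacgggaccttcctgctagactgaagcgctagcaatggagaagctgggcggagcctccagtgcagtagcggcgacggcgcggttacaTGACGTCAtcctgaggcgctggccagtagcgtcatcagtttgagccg

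The 990 regions fell into 3 classes by how often their sequence occurs in the genome. The copies of the largest family made up 514 (51.9%). A further 169 (17.1%) were not linked to that family but lay mostly in repeated sequence. This means that more than 50% of their 32-base words occur again on the assembled chromosomes. The remaining 307 were mostly single-copy. Of these, 45 met an H3K4me3 interval that itself came within 1 kb of a coding TSS, 18 lay within 1 kb of a tRNA gene start, 72 within 1 kb of a non-coding TSS and 4 within 1 kb of a coding TSS that only RefSeq annotates. For 168 none of these applied.

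**Figure D1:**
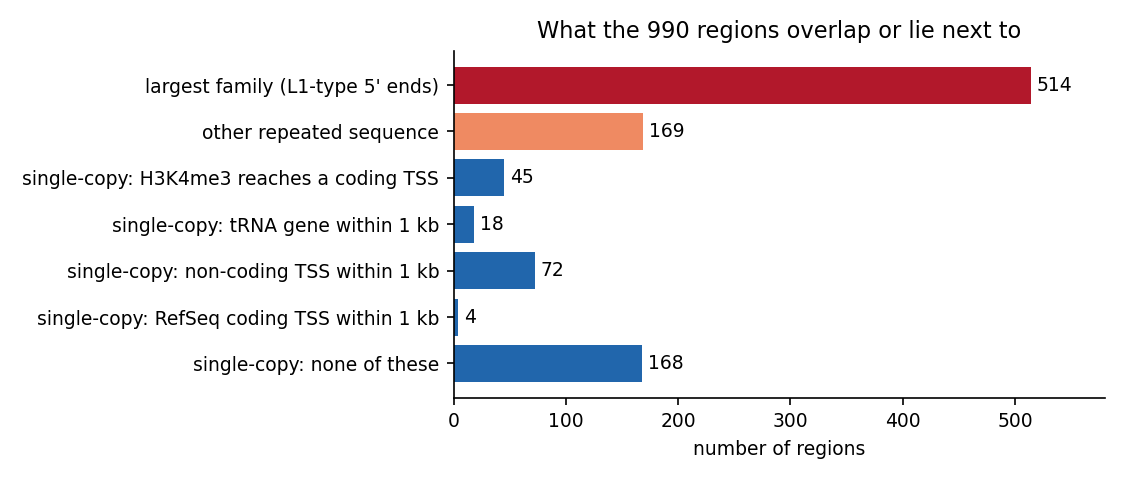
The bars give the number of regions in each class, counted once in the order from top to bottom. The largest repeat family holds 514 of the 990 regions, and the 5 single-copy classes together hold 307.

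The regions were narrow, their widths having a median of 243 bp (179 to 328 bp between quartiles), and together they covered 273695 bp. Their H3K4me3 partners were wider, at a median of 901 bp, and 751 regions (75.9%) lay inside H3K4me3 over their whole length. The regions were spread over 731 windows of 1 Mb, of which 532 held 1 region and none more than 5. Per chromosome there were 25 (chromosomes 18 and 19) to 87 (chromosome 1), which was 22.4% (chromosome 15) to 47.7% (chromosome 3) of the HA-Tex10 intervals outside dense windows. The centre of 661 regions (66.8%) lay between protein-coding genes, 276 lay in introns and 53 in exons. The median distance to a coding TSS was 42582.5 bp, and 347 regions (35.1%) lay more than 100 kb from one.

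At the limits of the choice, the regions closest to a coding TSS lay 1003 bp from Zbtb1, 1011 bp from Zyg11a and 1033 bp from Foxd4. HA-Tex10 intervals with H3K4me3 that were just too close lay 1000 bp from Kit, 996 bp from Tedc1 and 994 bp from Irx5. Windows with exactly 9 HA-Tex10 intervals contributed 20 regions, and windows with exactly 10 would have added 19.

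Mostly repeated sequence made up 681 of the 990 regions (68.8%, 65.8 to 71.6%). It is given beside that of 3 comparison sets from the same lists, also outside dense windows. Where HA-Tex10 met H3K4me3 within 1 kb of a coding TSS, 32 of 1207 intervals were mostly repeated (2.65%, 1.88 to 3.72%). Where HA-Tex10 lay away from coding TSS without H3K4me3, it was 426 of 786 (54.2%, 50.7 to 57.7%). H3K4me3 intervals away from coding TSS without HA-Tex10 were mostly repeated in 3667 of 11140 cases (32.9%, 32.1 to 33.8%). Those wider than 300 bp were read over their central 300 bp only, and HA-Tex10 intervals over their whole length, so this share covers an unlike span. Reads that match several copies can be placed at one of them or left out, and how this was done is not given in the sources used here. What part the placement of reads has in these shares was not tested.

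The regions were rich in G and C, at a median of 63% in their central 200 bp (interquartile range 56 to 65.5%), the same median as at coding TSS. The median was 64.5% in the largest family, 57.5% in the other mostly repeated regions and 56.5% in the 309 mostly single-copy ones. As a set, the regions resembled CpG islands less often than intervals at coding TSS. A GC content of at least 50% and a CpG frequency of at least 0.6 of that expected, over 500 bp, was met by 354 regions (35.8%, 32.8 to 38.8%). The share was 83.3% (81.1 to 85.3%) for HA-Tex10 with H3K4me3 at coding TSS, 12.8% (10.7 to 15.4%) for HA-Tex10 alone and 22.1% (21.3 to 22.8%) for H3K4me3 alone, both away from coding TSS. Within the regions it was 213 of 514 in the largest family (41.4%) and 30 of 169 in the other mostly repeated ones (17.8%). In the mostly single-copy regions, 2 of which are also in the largest family, it was 112 of 309 (36.2%).

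**Figure D2:**
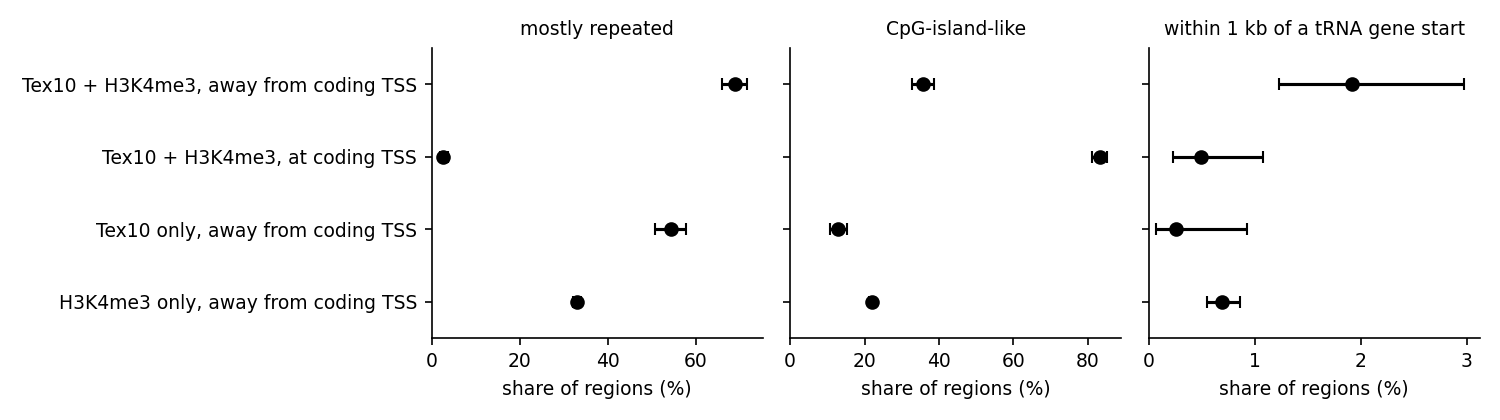
Points give the share of regions (%) that are mostly repeated, CpG-island-like or within 1 kb of a tRNA gene start, for the 990 regions and the 3 comparison sets, and bars are Wilson 95% intervals. The regions with Tex10 and H3K4me3 away from coding TSS have the highest point for repeats (68.8%) and for tRNA genes (1.92%).

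The 514 copies of the largest family were alike at 80% identity or more, linked from one to the next. Their 32-base words occurred a median of 2198 times on the assembled chromosomes (interquartile range 1248 to 2634). Their GC content was confined to a narrow band, with a median of 64.5% (63 to 65.5%), while that of the single-copy regions ran from 50.5 to 63% between quartiles. All 514 were masked as repeats in the reference over more than 50% of their length. None had its centre in an exon, 138 lay in introns and 376 between genes, and their median distance to a coding TSS was 118444 bp, against 11851 bp for the 309 mostly single-copy regions. The widest copy, at chr7:48304091-48305025 (935 bp), lay between genes 83501 bp from a TSS of Mrgprb8, inside 1246 bp of H3K4me3.

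**Figure D3:**
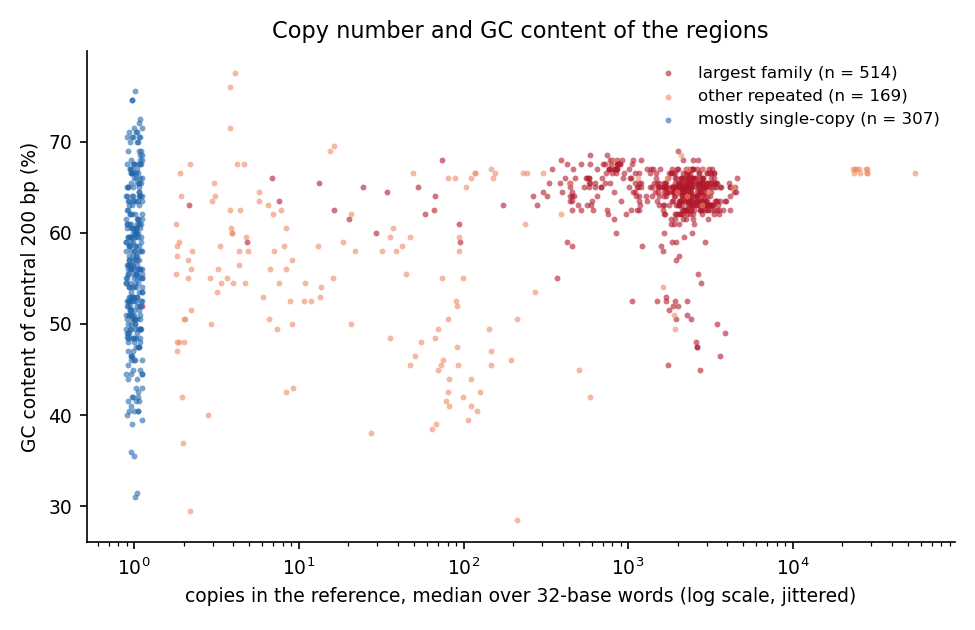
Each point is a region, placed by the median number of copies of its 32-base words in the reference (log scale, with small sideways scatter) and by the GC content of its central 200 bp (%). The largest family forms a cloud around 2198 copies and 64.5% GC, and the single-copy regions stretch along the left edge.

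The sequence on one side of these copies was arranged as in a full-length L1. On the strand given by the shared sequence, 410 of the 514 copies (79.8%) had an open reading frame of at least 1000 codons within the next 9000 bp, with a median longest frame of 1300 codons. The other side and the other strand had such a frame in 2 to 4 copies each. The FADD motif, which L1 reverse transcriptases carry at their active site, was found in the longest frame of 476 copies. In 390 of the 410, a shorter frame of at least 300 codons (median 384) preceded the long one, as the first reading frame of L1 does. The long frame began a median of 1640.5 bp beyond the region. Among the other 476 regions, 37 had a frame of at least 1000 codons on either side. No repeat annotation was used, so the copies are described as L1-type by this arrangement.

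Within and around the regions, the sequence repeated itself at the spacing of promoter monomers. In the 511 copies where repeated 20-base words could be found, the commonest spacing was 212 bp, in 263. At 90% identity the family split into subfamilies of 313, 151 and 48 regions, which hold 512 of the 514. Their commonest spacings were 212 bp (263 of 311), 208 bp (128 of 150) and 206 bp (37 of 48). The subfamilies also differed in GC content, at medians of 65%, 63% and 67%, and in copy number, at medians of 2154, 2459 and 812.

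The words printed above show how far each subfamily's sequence is shared. The word of the first subfamily, with 1 CpG, was in 193 of its 313 regions (61.7%) and occurred 4822 times on chromosomes 1 to 19, of which 3830 lay in H3K4me3 and 310 in HA-Tex10 intervals. The word of the second, also with 1 CpG, was in 112 of 151 regions (74.2%), and 3234 of its 5585 genomic copies lay in H3K4me3 and 179 in HA-Tex10. The third, with 2 CpG, was in 36 of 48 regions (75%), and 460 of its 1014 copies lay in H3K4me3 and 73 in HA-Tex10. The words were taken from HA-Tex10 intervals that met H3K4me3, so some presence in both lists was set by the choice. The H3K4me3 list is longer, at 29072 intervals, than the HA-Tex10 list. What part this has in the difference between the counts was not tested.

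Short words known from promoter factors were divided between the subfamilies. The YY1 word AAGATGGCG was in the central 200 bp of 234 of the 313 regions of the first subfamily (74.8%) and 37 of the 48 of the third (77.1%), and in 0 of 151 of the second. The second instead held the NFY word CCAAT in 137 regions (90.7%), which was in 1 region of the first and 0 of the third. The ETS word CCGGAAG was in 164 regions of the first (52.4%), 0 of the second and 1 of the third. The SP word GGGCGG was in 179 of the first (57.2%), 0 of the second and 44 of the third (91.7%). Words were searched on both strands and may overlap. In 138 regions of the first subfamily the YY1 and ETS words were both present, and in 0 of these did they overlap each other. Copies of one subfamily inherit the same letters, so their matches are not separate observations, and a match is not a binding site. The 514 regions are given beside the 2963 H3K4me3 intervals away from coding TSS that share the family's sequence but lack HA-Tex10. The YY1 word was in 52.7% (48.4 to 57.0%) of the regions and 44.3% (42.6 to 46.1%) of those intervals, and the SP word in 43.6% (39.4 to 47.9%) and 33.7% (32 to 35.4%). The ETS word was in 32.1% (28.2 to 36.3%) and 27.9% (26.3 to 29.5%). The NFY word had the opposite order, at 26.8% (23.2 to 30.8%) and 36.7% (35.0 to 38.5%). The central 200 bp was that of the HA-Tex10 interval in the regions and of the H3K4me3 interval in the others. Different parts of the element can thus be read, and the mix of subfamilies can differ. What part these have in the shares was not tested.

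To see the family beyond the chosen regions, all L1-type elements with a long frame of at least 1000 codons and the FADD motif were located on the reference. Outside dense windows there were 3843. In the 4000 bp before the frame, 2429 (63.2%, 61.7 to 64.7%) had H3K4me3 and 407 (10.6%, 9.66 to 11.6%) had HA-Tex10, of which 397 had both. HA-Tex10 was present at 16.3% (14.9 to 17.9%) of the elements with H3K4me3 and at 10 of the 1414 without it (0.707%, 0.385 to 1.30%). Elements with a frame of at least 1200 codons had H3K4me3 in 70.4% and HA-Tex10 in 12.3% (n = 3069). In those with a shorter frame these shares were 34.5% and 3.88% (n = 774). Both lists covered the same stretch of the element: HA-Tex10 coverage was highest 1650 bp before the long frame, at 3.77% of elements, and H3K4me3 coverage 1550 bp before it, at 53.0%. A chosen region, which meets H3K4me3 by the choice, was at 390 of the elements. The HA-Tex10 values here are thus mostly those of the chosen regions again. The joint presence and the shared stretch are a description and not separate support.

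**Figure D4:**
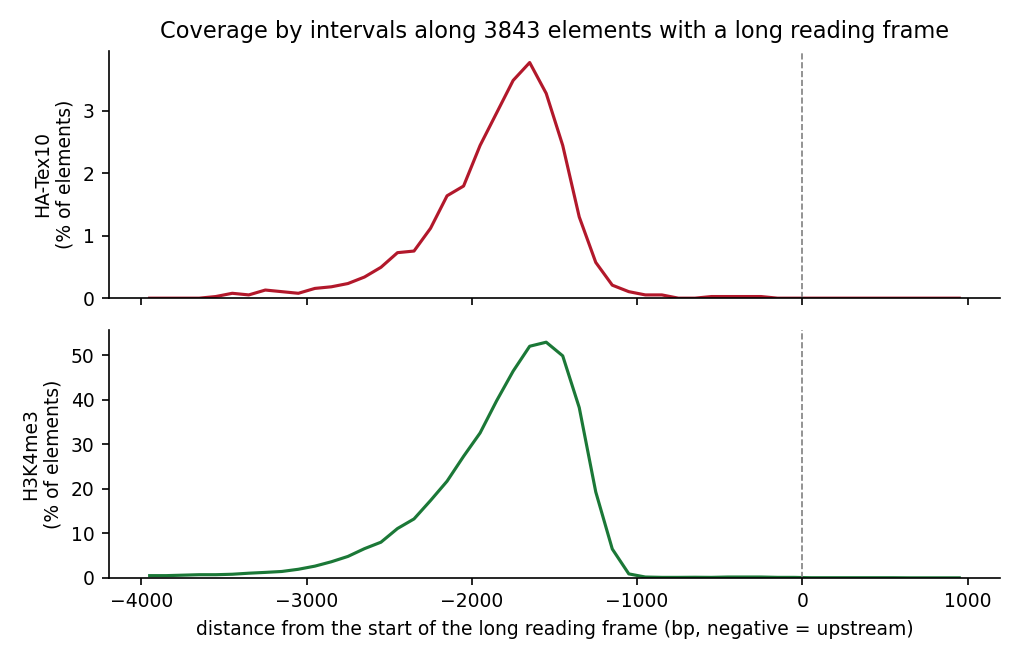
Lines give the share of 3843 L1-type elements (%) covered by HA-Tex10 (upper) and H3K4me3 (lower) intervals, by distance in bp from the start of the long reading frame (dashed line). Both rise to a single peak, at 1650 bp and 1550 bp upstream, and the vertical scales differ.

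Many H3K4me3 sites outside the chosen regions carried the same sequence. At least 1 stretch of 32 bases taken from the 514 copies occurred in 2963 of the 11140 H3K4me3 intervals away from coding TSS without HA-Tex10 (26.6%, 25.8 to 27.4%). Of all 3455 H3K4me3 intervals away from coding TSS that share such a stretch, 492 met HA-Tex10 (14.2%, 13.1 to 15.4%). The median width of the 3455 was 580 bp. Among those that share no such stretch, 141 of the 854 mostly repeated ones met HA-Tex10 (16.5%, 14.2 to 19.1%). The median width of the 854 was 392 bp. Of the 7717 mostly single-copy ones, 253 did (3.28%, 2.90 to 3.70%), and the median width of the 7717 was 413 bp. Whether an H3K4me3 interval wider than 300 bp was mostly repeated was read from its central 300 bp only. Meeting HA-Tex10 is part of how the regions were chosen, and the stretches were taken from them, so these shares are a description.

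The other repeats were many and small. Families of at least 2 regions numbered 22 and held 615 regions, the largest included, and 375 regions were linked to no other. Very short regions can fail the E-value limit used to link sequences. A region of 18 bp (chr1:61498391-61498408) with a median of 2891 copies was among the 375. Whether such regions are parts of the largest family was not tested. The second family had 14 regions with a median GC content of 45.25%, and its widest region was at chr12:68561706-68562416. The third had 12 regions, and its widest, at chr5:100223081-100223749, held tandem copies of AGG. Another 11 regions consisted mostly of tandem repeats with units of up to 6 bases (median 100% of the bases, lowest 64.4%). In the widest of them AGAGGC was the commonest unit, and 6 of the 11 lay in introns. A family of 8 regions consisted of such tandem repeats, of any unit, over a median of 92.3% of the bases. The telomere repeat unit AACCCT was the commonest unit in its widest region, and units of the others were not read. The widest repeated region (2388 bp, chr17:13550667-13553054) lay in the lincRNA gene 2700054A10Rik and held tandem copies of ACAGC. Others among the 5 widest lay 35608 bp from Zfp825 (1070 bp), in the transcript Muc19 of a mucin gene (1049 bp) and in an intron of Ispd (924 bp, an L1-type copy).

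Among single-copy regions, tRNA genes formed a group of their own, with 19 regions lying within 1 kb of a tRNA gene start (1.92%, 1.23 to 2.98%), next to 30 tRNA genes of 14 isotypes. In the comparison sets the share was 0.497% (0.228 to 1.08%) at coding TSS, 0.254% (0.0698 to 0.923%) for HA-Tex10 alone and 0.691% (0.553 to 0.863%) for H3K4me3 alone. Of the 19 regions, 11 overlapped a tRNA gene and 9 contained at least 1 whole gene. None of the 19 was mostly repeated by the 32-base count, although tRNA genes of one isotype can be identical.

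Several regions were centred close to the gene. A region of 231 bp was centred 4 bp from the start of the proline tRNA gene n-TPagg2, and its H3K4me3 partner was 1928 bp wide. A region of 694 bp on chromosome 11 (chr11:48856188-48856881) held both n-TPtgg4 and n-TVaac7, proline and valine genes, and there the H3K4me3 partner was an interval of only 70 bp. At the threonine gene n-TTagt9 the region of 430 bp likewise met only 59 bp of H3K4me3. A pair of regions of 523 bp each on chromosome 11 lay at the cysteine genes n-TCgca55 and n-TCgca54 and shared one H3K4me3 interval of 1751 bp. The arginine gene n-TRccg1 lay in a region of 484 bp with 677 bp of H3K4me3, and the glycine gene n-TGtcc2 in one of 428 bp with 1836 bp.

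Of the 202 tRNA genes outside dense windows and more than 2000 bp from a coding TSS, 104 (51.5%) had an H3K4me3 interval within 1 kb and 31 (15.3%, 11.0 to 21.0%) an HA-Tex10 interval. All 31 were among the 104 with H3K4me3 (29.8%), and 0 of the 98 others had HA-Tex10. Of the 31, 28 had a chosen region within 1 kb, which meets H3K4me3 by the choice, so these counts are a description. The maxima of the lists lay at different positions. HA-Tex10 coverage was highest at 50 bp upstream of the gene start, at 6.93% of genes, where H3K4me3 coverage was 21.3%. H3K4me3 coverage was highest at 250 and 350 bp upstream, at 34.7% of genes, where HA-Tex10 coverage was 3.96% and 2.48%. The lines come from different numbers of genes, and regions such as that at n-TPagg2 lay wholly inside H3K4me3. In the L1-type elements the peaks of both lists lay 100 bp apart, which is the step at which coverage was read. Whether the distances differ between tRNA genes and L1-type elements was not tested.

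**Figure D5:**
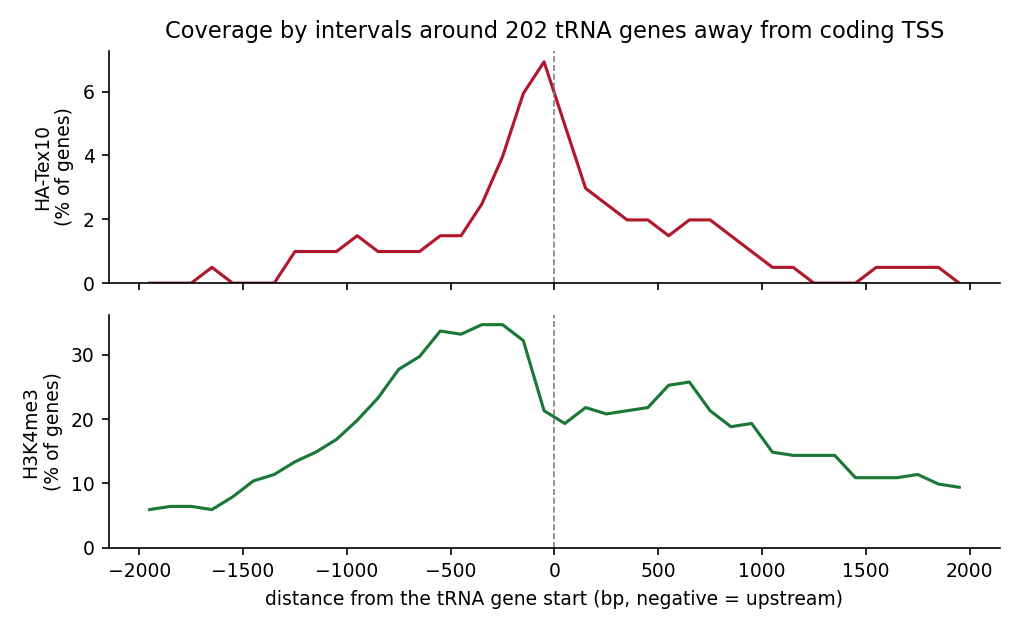
Lines give the share of 202 tRNA genes (%) covered by HA-Tex10 (upper) and H3K4me3 (lower) intervals, by distance in bp from the gene start (dashed line) in the direction of transcription. The HA-Tex10 maximum of 6.93% is 50 bp upstream of the gene start, where H3K4me3 coverage is 21.3%, below its maximum of 34.7% at 250 and 350 bp upstream.

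Starts of other non-coding transcripts lay within 1 kb of 118 regions (11.9%, 10.05 to 14.1%). The share was 73.7% (71.2 to 76.1%) at coding TSS, where most such transcripts belong to the coding gene itself, 9.41% (7.57 to 11.7%) for HA-Tex10 alone and 16.1% (15.4 to 16.8%) for H3K4me3 alone. Of the gene types, lincRNA genes were near 37 regions, pseudogenes 21, small RNA genes 14 and antisense genes 12, and non-coding transcripts of coding genes were near 37. For lincRNA genes the share of 3.74% (2.72 to 5.11%) lay beside 3.56% at coding TSS, 1.78% for HA-Tex10 alone and 3.55% for H3K4me3 alone. For small RNA genes the share of 1.41% (0.844 to 2.36%) lay beside 2.49%, 3.31% and 1.45% in the same sets.

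The widest of all regions were mostly single-copy by the 32-base count on the assembled chromosomes and lay over non-coding genes. One of 5776 bp (chr17:39843025-39848800, GC content 70%) contained a TSS of the lincRNA gene Gm26917, overlapped the annotated rRNA gene CT010467.1 and shared 5768 bp with its H3K4me3 partner. One of 4725 bp (chr1:24611499-24616223, GC content 39.5%) contained a TSS of the unprocessed pseudogene Gm28439 and lay wholly inside 4792 bp of H3K4me3. In both, the HA-Tex10 and H3K4me3 intervals thus had nearly the same extent, unlike the median region and its partner. Copies outside the assembled chromosomes were not counted, so both regions are not shown to be unique in the cells. Whether reads from such copies entered the intervals was not tested.

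The gene Rn7sk encodes the 7SK RNA, which RNA polymerase III makes and which holds the elongation factor P-TEFb inactive. Its region of 549 bp (chr9:78175493-78176041) contained the TSS printed above and shared 71 bp with an H3K4me3 interval of 666 bp. Its GC content, at 31%, was far below the median of the regions. The small Cajal body RNA gene Scarna2 had a region of 390 bp over its TSS, with 1031 bp of H3K4me3. Snhg6, a host gene of small nucleolar RNAs, had a region of 251 bp located 65 bp from its TSS. Scarna2 and Rn7sk were among the widest single-copy regions at a non-coding TSS, while Snhg6 was named after its values were seen.

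Several regions lay at starts of long non-coding genes, of which Lockd and 2410080I02Rik were named after their values were seen. A region of 368 bp lay 79 bp from the TSS of Lockd, downstream of the cell cycle inhibitor gene Cdkn1b, inside 4511 bp of H3K4me3. A pair of regions of 359 and 301 bp lay near the TSS of 2410080I02Rik, in the neighbourhood of the transcription factor gene Klf9, in one H3K4me3 interval of 4776 bp. The lincRNA gene 1110036E04Rik had a region of 575 bp over its TSS, 27611 bp from Smad6, an inhibitor of BMP signalling. At 1700012C14Rik, regions of 487 and 345 bp met one H3K4me3 interval of 1473 bp. The regions at Epb41l4aos (419 bp), Gm10505 (426 bp) and the pseudogene Gm5067 (564 bp) contained a TSS. That near the pseudogene Gm48525 (459 bp) lay 135 bp from one.

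The CREB word was in 3 regions, all single-copy. One, of 139 bp, contained the TSS of Tmem250-ps with 2050 bp of H3K4me3, and one, of 260 bp, that of the pseudogene 4930471M09Rik with 1085 bp. Both were CpG-island-like, and they were singled out after their sequences were seen. The last lay 42938 bp from Ccr1. The NRF1 word GCGCATGCG, known from promoters of housekeeping genes, was likewise in 3 regions (0.303%, 0.103 to 0.887%), all single-copy. Of the 309 mostly single-copy regions alone, each of these words was thus in 0.971% (0.331 to 2.82%). At coding TSS, HA-Tex10 intervals with H3K4me3 held the CREB word in 2.57% (1.82 to 3.62%) and the NRF1 word in 3.40% (2.51 to 4.58%). H3K4me3 intervals away from coding TSS without HA-Tex10 held them in 0.144% and 0.162%.

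Regions with an H3K4me3 partner that reached a coding promoter numbered 48 (4.85%, 3.68 to 6.37%), 45 of them single-copy. These partners were wide, at a median of 3269 bp for the 45, and the regions lay a median of 1332 bp from the TSS. One was at Tdgf1, a Nodal co-receptor gene of pluripotent cells: 472 bp at chr9:110947280-110947751, located 1122 bp from a TSS and wholly inside 5399 bp of H3K4me3. Another, of 309 bp, lay in an intron of L1td1, which encodes an RNA-binding protein derived from an L1 reading frame, inside 6759 bp of H3K4me3. Others of this kind were at the repressor genes Mnt (501 bp) and Cbx7 (318 bp), at Mllt6 (322 bp) and at Brd2 (319 bp). Mnt, Cbx7, Mllt6, Brd2 and L1td1 were named after their values were seen.

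The 168 remaining single-copy regions had narrower H3K4me3 partners, at a median of 605.5 bp, and 40 were CpG-island-like. One lay near Nanog, the pluripotency factor gene: 307 bp at chr6:122702631-122702937, located 4552 bp from its TSS, with 1575 bp of H3K4me3. The widest in an exon lay in Adgra2, an adhesion receptor gene involved in Wnt7 signalling, over 765 bp with 1852 bp of H3K4me3. Regions of 1452 bp and 629 bp lay between genes, 24743 bp from Ly6c2 and 164495 bp from Gdi2.

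The fixed gene lists were met by few regions. Within 10 kb of a gene or inside it, a region was present at 529 of 20807 protein-coding genes (2.54%). In the pluripotency list it was 2 of 18 genes, Nanog and Tdgf1 (11.1%, 3.10 to 32.8%). It was 0 of 15 germ cell genes, 0 of 6 genes of Tex10 and its partners, and 0 of 22 Wnt pathway genes. In the list for ribosomal RNA processing it was 1 of 9, Npm1, which encodes the nucleolar protein nucleophosmin. That region (245 bp, chr11:33148487-33148731) lay closer to Fgf18, 1087 bp from its TSS, and shared 10 bp with an H3K4me3 interval of 232 bp. Genes in dense windows, which can hold no region, were counted in the totals.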

How the data were processed

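ChIP-seq of HA-Tex10, H3K4me3 and input was done with an enzymatic chromatin kit, per the labels' protocols. The authors deposited interval lists giving start and end in bp. Bowtie2 2.3.4.3, SAMtools 1.9, MACS2 2.1.2, HOMER and the build mm10 are named, with no role, per the submitters' processing notes. The peak threshold, the use of input, the handling of reads with several matches and the way replicates were combined are not given in the sources used here. A further deposited list, drawn from the HA-Tex10 list, was not used. No interval ended past a GRCm38 chromosome end.

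TSS came from GENCODE M21 and tRNA genes and genome sequence from RefSeq GRCm38.p6. Python 3.11.15, numpy 2.4.6, pandas 2.3.3 and numba 0.67.0 were used. Repeats were read from 32-base words counted on both strands of the assembled chromosomes. Intervals under 100 bp were widened to 100 bp, and the central 300 bp of H3K4me3 intervals were read. Sequence families came from BLAST+ 2.17.0 (E-value 1e-05, 80% identity over 80% of the shorter sequence, single linkage). Reading frames ran from stop to stop. The functions were tested on simulated data.

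Named regions were the 10 widest single-copy regions, the 5 widest repeated, the 10 widest single-copy at a non-coding TSS, those within 10 kb of listed genes, those nearest the 1 kb limit and the widest of the 3 largest families. Others are marked where named, or are tRNA genes that a region contained or lay next to. The regions and the lists were chosen with earlier results of these data known. No statistical test was made.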

Additional observations from a re-analysis of the deposited data

How the results depend on the processing

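No paired analysis was possible because the lists hold 1 set of intervals per antibody and no replicate values. No replicate could be left out for the same reason. Of 87 values of the main results under other settings, 64 stayed within the counting interval of the main value (within 1.5 times for counts) and 23 moved. The number of regions moved with HA-Tex10 intervals wider than their median, to 530. The mostly repeated share was 73.5% and 75.6% with TSS windows of 2.5 and 5 kb, 76.9% without windows of 5 or more intervals, 74.9% if any word and 54.3% if every word had to be repeated. The share at a non-coding TSS was 8.50% with TSS of all transcripts of coding genes, 9.65% without windows of 5 or more intervals, 27.8% without mostly repeated regions, 4.24% if the region contained the TSS and 23.7% within 5 kb. The share whose H3K4me3 partner reached a coding TSS was 0.219% and 0% with windows of 2.5 and 5 kb, 3.40% with wider intervals and 14.6% without repeated regions. The share in a gene body was 29.2% with 5 kb and 42.4% without repeated regions. The median GC content was 62.5% with dense windows kept, 56.5% without repeated regions, 62% over 500 bp and 62.6% over the whole interval. The CpG-island-like share was 16.2% at a GC content of 55% and a CpG ratio of 0.65. The largest family held 313 regions at 90% identity. The share of regions with a motif word moved for 12 of 15 words over 500 bp, where more letters are searched. The cause of the other moves was not tested. The depth is unknown, so a place without an interval is not shown to lack Tex10.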
